A study of Mus musculus with 6 samples.

Results

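NF-kB is a family of transcription factors that switches on genes of inflammation, survival and immunity. The genes described here are 10 components and outputs of this system. They are the subunits Nfkb1, Nfkb2, Rela and Relb and the feedback or target genes Tnfaip3, Icam1 and Birc3. The others are Nfkbia, Nfkbib and Nfkbiz of the IkB inhibitor family, of which Nfkbiz is an atypical member. The 10 genes were chosen by name, for what they do, but with earlier results of these data known. All were present among the 18743 genes of the files. Their RNA was measured by RNA-seq in oligodendrocyte progenitor cells (OPCs), the proliferating cells from which the myelin-forming oligodendrocytes of the brain arise. The cells came from the cortex of wild-type neonatal C57BL/6 mice, labelled postnatal day 1, were isolated with magnetic beads against the receptor PDGFRα, and were expanded in culture for 3 days. The vehicle group (3 libraries) received 0.25% DMSO, and the hemin group (3 libraries) 50 µM hemin, the ferric form of heme, each for 12 hours. No DMSO content is given for the hemin group, so whether the groups shared it is not known. By its title, the study concerned ferroptosis, a type of cell death that depends on iron, in white matter injured by bleeding. The labels do not say whether the 3 libraries of a group were grown separately. The p-values therefore reflect only how these libraries spread, and that spread may be technical.

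In resting cells NF-kB dimers are held in the cytoplasm by inhibitors of the IkB family, of which IkBα (Nfkbia) and IkBβ (Nfkbib) are members. Receptors for TNF, interleukin-1 and microbial products activate the IKK kinase complex, which marks these inhibitors for destruction and frees RelA-p50 dimers (the canonical route). A slower, non-canonical route runs through the kinase NIK (Map3k14) and releases RelB-p52 dimers, p52 being made from the Nfkb2 product. The freed dimers bind kappaB sites in promoters, among them those of Nfkbia and Tnfaip3, whose products shut the signal off again. In the brain the pathway is best known from microglia and astrocytes, and it is also active in oligodendrocyte lineage cells under inflammatory stress.

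Since NF-kB dimers bind kappaB sites in promoters, the available promoters of these genes with the closest matches to such a site are shown. RefSeq promoter sequences of build GRCm38.p6 were at hand for 7 of the 10 genes, not for Nfkb1, Relb and Nfkbiz. The 250 bases before each start were searched on both strands for the kappaB consensus for an open form that contains it (GGG and CC around 5 free bases), for the shorter form GGAAANTCC, which can overlap both, and for the AP-1 letters TGANTCA. The consensus was found for 3 of the 7 genes (Nfkb2, Nfkbia and Tnfaip3) and the shorter form for 4 (the same 3 and Icam1). Among 27025 genes with such a window, 8.23% held the consensus and 1.25% the shorter form. The open form was found for 6 of the 7 genes beside 48.7% of all, and the AP-1 letters for Nfkb2 and Tnfaip3 beside 7.82% of all. Nfkbib held none of the 4. Capitals mark matches to the consensus and the shorter form in these stretches, which are written from 5′ to 3′ on the strand of the gene. For Nfkb2 and Tnfaip3, which have several annotated starts, the stretch comes from the first start in the RefSeq table. Each of the 3 Nfkb2 starts had a consensus match, and its shorter form lay before the third start.
Icam1, chr9:21015762-21015820, plus strand, bases 178 to 120 before the start: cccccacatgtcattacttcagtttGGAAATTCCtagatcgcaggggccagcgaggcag
Nfkb2, chr19:46304673-46304736, plus strand, bases 64 to 1 before the start: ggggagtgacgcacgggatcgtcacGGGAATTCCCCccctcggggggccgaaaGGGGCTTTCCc
Nfkbia, chr12:55492648-55492850, minus strand, bases 203 to 1 before the start: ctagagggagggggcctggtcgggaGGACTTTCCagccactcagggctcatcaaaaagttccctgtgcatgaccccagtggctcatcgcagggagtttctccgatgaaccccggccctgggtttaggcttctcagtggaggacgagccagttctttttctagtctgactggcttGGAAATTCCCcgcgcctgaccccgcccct
Tnfaip3, chr10:19015411-19015560, minus strand, bases 150 to 1 before the start: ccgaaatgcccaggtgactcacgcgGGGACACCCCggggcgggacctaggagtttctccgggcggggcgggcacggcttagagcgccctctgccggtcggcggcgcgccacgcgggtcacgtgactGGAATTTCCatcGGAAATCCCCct
In Nfkbia the match nearest the start begins 29 bases before it, in Tnfaip3 12 bases before it, and in Nfkb2 11 bases before it. The Icam1 match begins 153 bases before the start. A match describes these letters only and is no evidence of binding in these cells.

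The libraries held 6339966 to 6390691 expected counts over annotated genes with vehicle and 6463460 to 6523639 with hemin. OPC markers were expressed in both groups and were lower with hemin for 8 of 9 genes (summed level 1216 to 1467 FPKM per vehicle library and 391 to 595 per hemin library, FPKM being reads scaled for transcript length and sequencing depth). The 14 microglia markers summed to 17.5 to 29.6 FPKM with vehicle and 45.2 to 51.7 FPKM with hemin, and 3 of the 11 that could be tested passed as higher (Itgam, Tyrobp and Cd68). The 7 endothelial markers summed to 0.760 to 2.01 FPKM with vehicle and 4.48 to 6.11 FPKM with hemin. Of 4 tested, 3 rose (Pecam1, Tek and Kdr), while Cldn5, a defining gene of their tight junctions, had 3 counts over the 3 libraries of each group. Pecam1 had 4, 5 and 4 counts in the vehicle libraries and Tek had 2, 2 and 1, all under the minimum count of the filter given below. Pecam1 and Tek thus entered the test only through their hemin counts and could only be called higher. Astrocyte markers summed to 414 to 468 and 342 to 421 FPKM, neuron markers to 103 to 133 and 58.6 to 90.5 FPKM, and mural cell markers to 2.51 to 5.14 and 3.33 to 7.29 FPKM, with vehicle and hemin respectively. No marker was at 0 in all libraries of a group. Over all genes tested, 16.2% passed as higher and 15.7% as lower by the test described below. In bulk samples, a change in the number of cells of a type and a change in RNA per cell cannot be told apart.

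**Figure D1:**
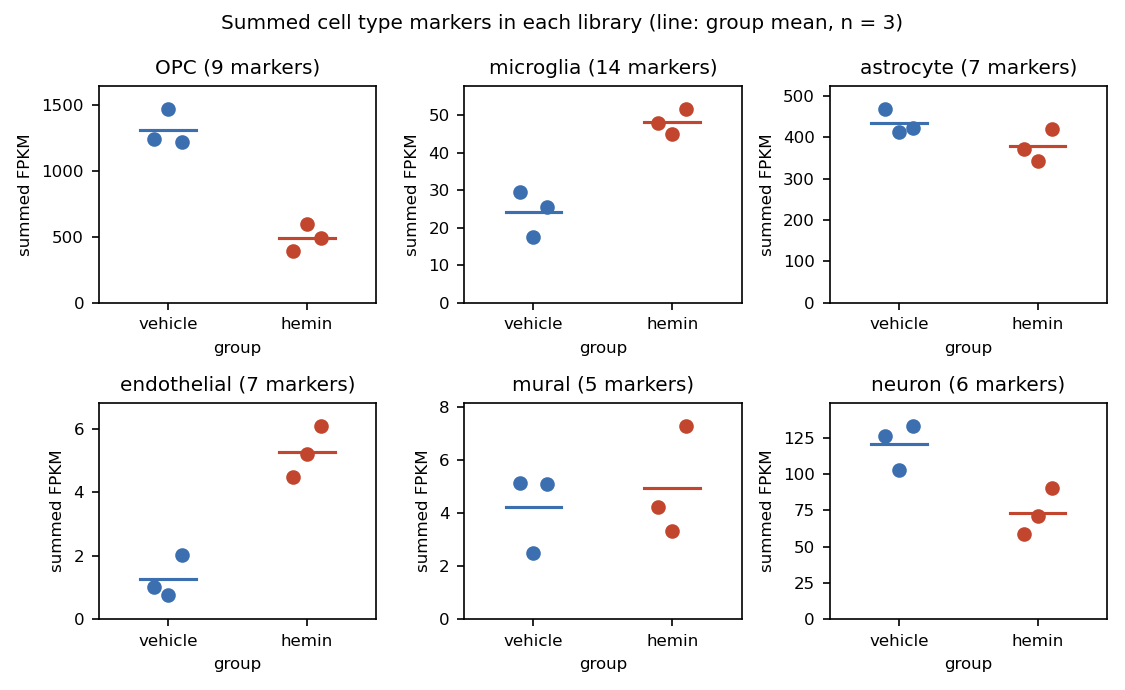
Summed FPKM of the marker genes of 6 cell types (vertical axis, linear, from 0) in each vehicle (blue) and hemin (red) library, with a line at the group mean (n = 3). The OPC sum is lower in all hemin libraries, and the microglia and endothelial sums are higher.

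Most of the NF-kB genes were higher with hemin. Of 9 genes that passed the filter on low counts, 6 rose and none fell in edgeR's quasi-likelihood test at a Benjamini-Hochberg adjusted p below 0.05 over all 12779 genes tested. Of all genes tested, 31.9% were called, 16.2% as higher and 15.7% as lower. Since the NF-kB genes were chosen with earlier results of these data known, these shares describe them and are no test of the set. The 6 were Nfkb1, Nfkb2, Nfkbib, Nfkbiz, Tnfaip3 and Icam1. Each of them reached the minimum of 10 counts, scaled for depth, in all 6 libraries. Rela, Relb and Nfkbia did not pass, and Birc3 had too few counts to be tested. For 8 of the 9, all 3 hemin libraries lay above all 3 vehicle libraries in log2 CPM, as they did for 24.1% of all genes. Rela was the exception. All hemin libraries lay below all vehicle libraries for 0 of the 9, against 24.8% of all genes, and for 48.9% of all genes the groups did not overlap in either direction. The median log2 fold change of the 9 was 0.95, beside 0.0022 over all genes. With library totals alone in place of TMM scaling, the number of genes called higher over all genes moved from 2072 to 1715 and of those called lower from 2005 to 2582, whereas 6 of the NF-kB genes were again called higher and none lower.

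**Figure D2:**
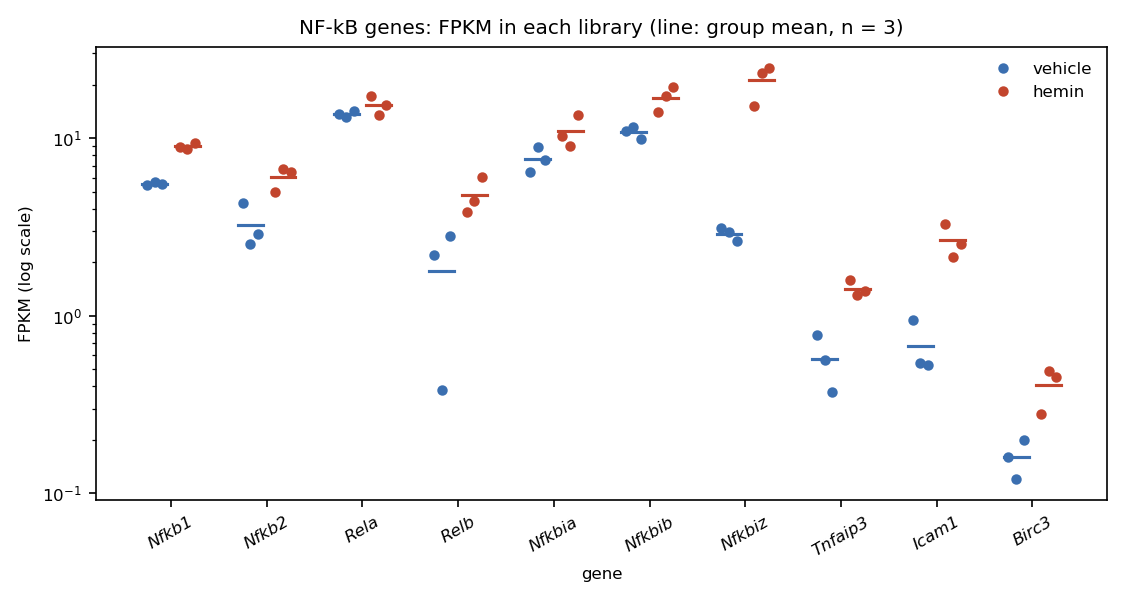
FPKM of the 10 NF-kB genes (vertical axis, log scale) in each vehicle (blue) and hemin (red) library, with a line at the group mean (n = 3). Nfkbiz moves from below Rela, Nfkbib and Nfkbia with vehicle to the highest group mean with hemin, and the Rela groups overlap.

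Among the subunits, the precursor genes Nfkb1 and Nfkb2 rose. Rela, which carries the main activation domain of the canonical dimer, stood at 13.7, 13.1 and 14.2 FPKM in vehicle replicates 1 to 3 and at 17.3, 13.4 and 15.4 FPKM in hemin replicates 1 to 3. The groups overlapped, since hemin replicate 2 lay below vehicle replicates 1 and 3. Its log2 fold change was 0.23 ± 0.14 (SE, edgeR adjusted p = 0.253), which does not show that its level was unaltered. Nfkb1 (gene identifier 18033 in the files), which encodes p105 and its product p50, stood at 5.44, 5.65 and 5.55 FPKM in the vehicle libraries, against 8.95, 8.64 and 9.35 FPKM in the hemin libraries. The libraries of each group lay close together and far from the other group. Nfkb1 rose 1.68-fold (log2 fold change 0.75 ± 0.11, SE, edgeR adjusted p = 0.00297), a call that all 13 alternative fits kept.

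Nfkb2 (18034), which encodes p100 and p52 of the non-canonical route, stood at 4.31, 2.54 and 2.89 FPKM in the vehicle libraries, against 4.97, 6.74 and 6.47 FPKM in the hemin libraries. The groups did not overlap, though vehicle replicate 1 and hemin replicate 1 came close to each other. Nfkb2 rose 1.94-fold (log2 fold change 0.95 ± 0.23, SE, edgeR adjusted p = 0.0175). Leaving out vehicle replicate 2, vehicle replicate 3 or hemin replicate 2 ended this call (edgeR adjusted p = 0.0604, 0.0555 and 0.0589). Psd, on the other strand, shares 299 of the 4584 annotated exon bases of Nfkb2 and was lower with hemin (2.83 ± 0.304 FPKM in vehicle, 1.04 ± 0.285 in hemin, SD, n = 3 per group, edgeR adjusted p = 0.00470). A second gene on that strand, AC114539.1, shares 531 of these bases and was not analysed here. Relb (19698), the partner of p52, stood at 2.19, 0.38 and 2.82 FPKM in the vehicle libraries, against 3.84, 4.40 and 6.06 FPKM in the hemin libraries. Vehicle replicate 2, with 7.16 expected counts against 42 and 55 in the other vehicle libraries, was far below the rest. The log2 fold change of 1.45 ± 0.58 (SE) did not pass (edgeR adjusted p = 0.0960). Without vehicle replicate 2 it was 0.98 (edgeR adjusted p = 0.0572), while DESeq2 and limma on log2(FPKM + 1) called Relb higher over all 6 libraries (adjusted p = 0.0415 and 0.0443).

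Among the genes of the IkB family, Nfkbib and Nfkbiz rose and Nfkbia did not pass. Nfkbia (18035), the classical IkBα that NF-kB itself induces, stood at 6.43, 8.91 and 7.58 FPKM in the vehicle libraries, against 10.3, 8.98 and 13.6 FPKM in the hemin libraries. The groups were separated only by the small step from vehicle replicate 2 to hemin replicate 2, each with 120 expected counts. Its log2 fold change was 0.57 ± 0.21 (SE, edgeR adjusted p = 0.0714), and no alternative called it (adjusted p from 0.0600 to 0.196). Nfkbib (18036), which encodes IkBβ, stood at 11.0, 11.6 and 9.94 FPKM in the vehicle libraries, against 14.0, 17.2 and 19.4 FPKM in the hemin libraries. It rose 1.61-fold with non-overlapping groups (log2 fold change 0.68 ± 0.16, SE, edgeR adjusted p = 0.0143), a call lost without vehicle replicate 1 (0.0516). Its exons share 42 annotated bases with Sirt2 and 314 with Ccer2 on the other strand, and reads there cannot be told apart where strand was not kept. Sirt2 stood at 53.0 ± 8.54 and 54.0 ± 6.73 FPKM and Ccer2 at 0.0400 ± 0.0693 and 0.200 ± 0.250 FPKM (SD, n = 3 per group).

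Nfkbiz (80859) had the largest fitted log2 fold change of the 10 genes. It encodes IkBζ, an atypical nuclear member of the IkB family that is itself induced by inflammatory signals and promotes transcription of a subset of NF-kB targets. Its level was 3.12, 2.96 and 2.62 FPKM with vehicle and 15.1, 23.3 and 24.97 FPKM with hemin. Every hemin library was several times above every vehicle library, and hemin replicate 1 was the lowest of its group. Nfkbiz rose 7.55-fold (log2 fold change 2.92 ± 0.20, SE, edgeR adjusted p = 0.000199), placing it at the 98.6th percentile of log2 fold changes over all genes tested and 47th when genes were ordered by p. All 13 alternatives kept the call, with log2 fold changes from 2.48 to 3.09.

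Of the feedback and target genes, Tnfaip3 and Icam1 rose from low levels. Tnfaip3 (21929), which encodes the ubiquitin-editing enzyme A20 that ends NF-kB signalling, stood at 0.78, 0.56 and 0.37 FPKM in the vehicle libraries, against 1.58, 1.31 and 1.37 FPKM in the hemin libraries. The lowest hemin library was above the highest vehicle library. Tnfaip3 rose 2.60-fold (log2 fold change 1.38 ± 0.32, SE, edgeR adjusted p = 0.0147), on 15 to 31 expected counts per vehicle library and 52 to 64 per hemin library. Icam1 (15894), an adhesion molecule that binds leukocyte integrins, stood at 0.95, 0.54 and 0.53 FPKM in the vehicle libraries, against 3.28, 2.13 and 2.55 FPKM in the hemin libraries. The groups were well apart. Icam1 rose 4.08-fold (log2 fold change 2.03 ± 0.34, SE, edgeR adjusted p = 0.00464). Microglia and endothelial cells also express Icam1 and Tnfaip3, and the sums of their markers given above were higher in the same libraries. The endothelial markers Cldn5 and Emcn were not higher. The part of these cell types in the results was not tested. An annotated antisense gene, Gm47079, shares 511 of the 4360 exon bases of Icam1 and was not analysed here.

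Birc3 (11796), a ubiquitin ligase that guards TNF receptor complexes against cell death, was barely detected, at 0.16, 0.12 and 0.20 FPKM with vehicle and 0.28, 0.49 and 0.45 FPKM with hemin. These levels rest on 3 to 5 expected counts per vehicle library and 7 to 12 per hemin library. Every hemin value was above every vehicle value. With no filter on low counts, the log2 fold change was 1.31 ± 0.44 (SE, edgeR adjusted p = 0.0667).

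**Figure D3:**
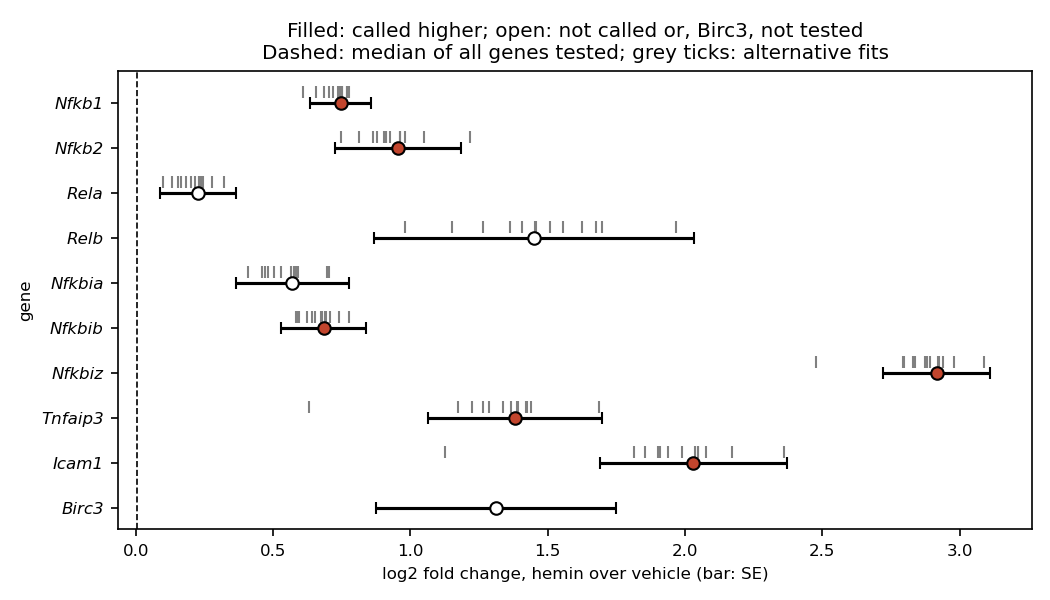
Log2 fold change of hemin over vehicle (horizontal axis) with its SE for each NF-kB gene, filled where called higher by edgeR and open where not called (Rela, Relb and Nfkbia) or not tested (Birc3, value without a filter). Grey ticks are the 13 alternative fits of each tested gene and the dashed line is the median of all genes. All points and ticks lie above that line, and Nfkbiz, at 2.92, stands farthest from it.

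The files list reads by annotated transcript, and 5 of the 10 genes had more than 1. For Nfkbiz the 3625-base transcript took 72.2% of the summed vehicle counts and 88.6% of the summed hemin counts, and the 3507-base transcript the rest. Per library, the share of the longer transcript was 53.3%, 66.7% and 100% with vehicle and 77.9%, 94.3% and 89.7% with hemin. The groups overlapped in this share, which was highest in vehicle replicate 3. The longer transcript stood at 1.64, 1.95 and 2.62 FPKM in the vehicle libraries, against 11.7, 21.9 and 22.3 FPKM in the hemin libraries. The shorter stood at 1.48, 1.01 and 0 FPKM in the vehicle libraries, against 3.44, 1.37 and 2.65 FPKM in the hemin libraries. The rise of the gene was thus carried mainly by the longer transcript in these estimates. For Nfkb2 the 3205-base transcript held 67.7%, 73.6% and 93.4% of the counts in the vehicle libraries and 88.6%, 73.9% and 74.8% in the hemin libraries. These shares overlapped between the groups and spread widely within each. In vehicle replicate 2, Relb was listed only as its 2194-base transcript and Tnfaip3 only as its 4352-base transcript. In the other 5 libraries all reads of Relb were given to the 2218-base transcript and all reads of Tnfaip3 to the 4437-base transcript. Nfkbib was counted almost wholly as its 1384-base transcript, with 98.4% of vehicle and 98.9% of hemin counts. These are estimates of how reads divide between similar transcripts, were not tested, and a listed 0 can be a failed estimate.

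**Figure D4:**
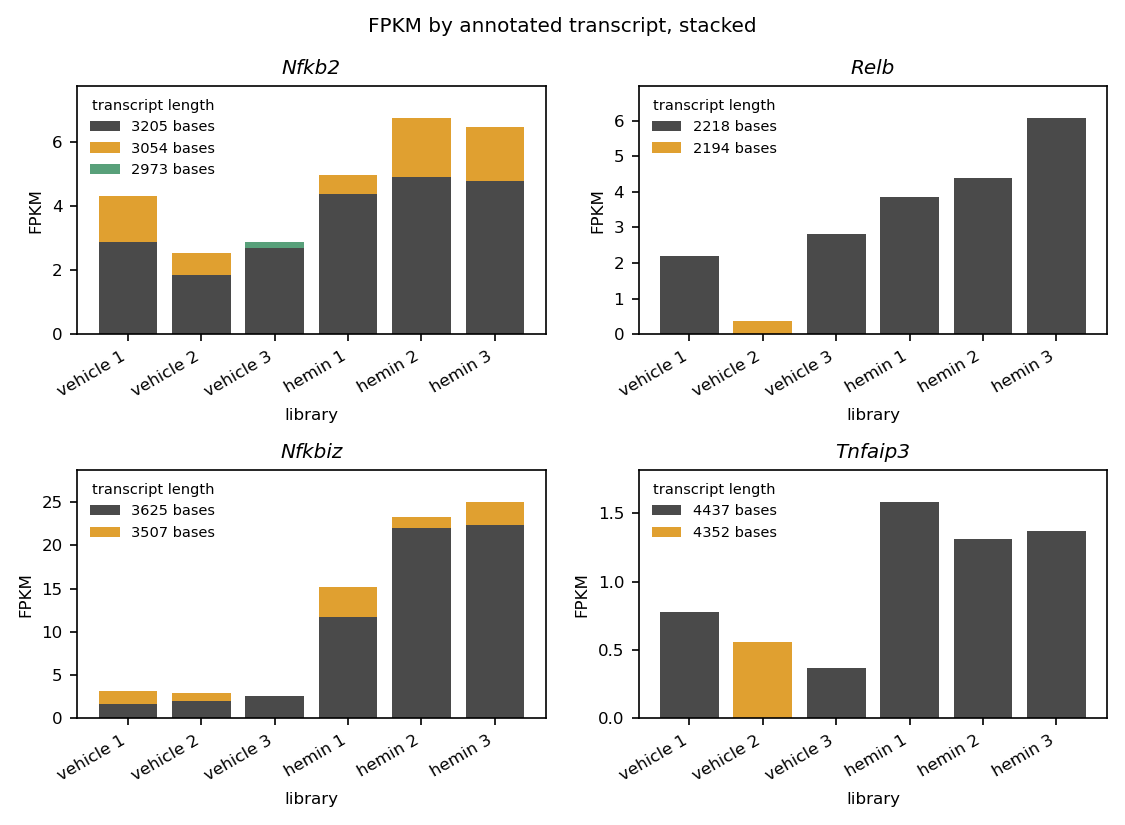
FPKM of each annotated transcript, stacked (vertical axis, linear, from 0), for Nfkb2, Relb, Nfkbiz and Tnfaip3 in the 3 vehicle and 3 hemin libraries. The longer Nfkbiz transcript makes up most of the hemin bars, and vehicle replicate 2 alone lists the shorter Relb and Tnfaip3 transcripts.

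The order of the genes by FPKM, a scale corrected for transcript length, differed between the groups. With vehicle, Rela led at 13.7 ± 0.567 FPKM (SD, n = 3), followed by Nfkbib at 10.9 ± 0.858, Nfkbia at 7.64 ± 1.24 and Nfkb1 at 5.55 ± 0.105. None of these 4 overlapped with the next gene in the order. Nfkb2 at 3.25 ± 0.937, Nfkbiz at 2.90 ± 0.255, Relb at 1.80 ± 1.27, Icam1 at 0.673 ± 0.240 and Tnfaip3 at 0.570 ± 0.205 followed, each overlapping with its neighbour in this run. Birc3 was lowest at 0.160 ± 0.0400, clear of Tnfaip3. With hemin, Nfkbiz had the highest mean level at 21.1 ± 5.27 FPKM (SD, n = 3), overlapping with Nfkbib at 16.9 ± 2.70, which overlapped with Rela at 15.4 ± 1.94. Nfkbia at 10.9 ± 2.36 came next, overlapping with Rela above it and with Nfkb1 at 8.98 ± 0.356 below it. Nfkb2 at 6.06 ± 0.954 and Relb at 4.77 ± 1.16 also overlapped, and Icam1, Tnfaip3 and Birc3 closed the order without overlap.

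Ratios within a library do not depend on scaling between libraries. The FPKM ratio of the inhibitor Nfkbia to Rela was 0.468, 0.681 and 0.533 with vehicle and 0.594, 0.669 and 0.878 with hemin. These values overlapped (mean 0.561 ± 0.109 and 0.714 ± 0.147, SD, exact two-sided permutation p = 0.30, n = 3 per group, where the design cannot go below 0.10). The ratio of the non-canonical pair Nfkb2 plus Relb to the canonical pair Nfkb1 plus Rela was 0.339, 0.156 and 0.289 with vehicle and 0.336, 0.505 and 0.505 with hemin. Here hemin replicate 1 lay just below vehicle replicate 1 (mean 0.261 ± 0.0947 and 0.449 ± 0.0979, SD, exact two-sided permutation p = 0.20, n = 3 per group). The lowest value, 0.156, belongs to vehicle replicate 2. In that library Relb had 7.16 expected counts, listed under a transcript that no other library used, which can be a failed estimate.

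The rest of the pathway was read from 7 lists of 109 genes, grouped by role, of which 77 could be tested. The lists, too, were chosen with earlier results of these data known. Of these, 33 rose (42.9%) and 5 fell (6.49%), beside 16.2% and 15.7% of all genes, and the median log2 fold change was 0.49. Of the 33 that rose, 9 were under the minimum count in at least 1 vehicle library and 8 of these in all 3, as were 348 and 210 of the 2072 genes that rose over all genes. The 8 were Ccl2, Cxcl1, Cxcl2, Cxcl10, Ptgs2, Tlr2, Tnfsf13b and Usp18. Such genes entered the test only through their hemin counts and could only be called higher, so the counts and medians of the lists describe the genes that passed the filter and support nothing further. None of the 5 that fell was under the minimum in a hemin library. Without vehicle replicate 1, 2 or 3 the number that fell was 2, 2 and 3. Among other family members and inhibitors, 1 of 4 tested genes rose and none fell. This was Nfkbil1, an IkB-like protein, at 2.99 ± 0.240 and 5.16 ± 1.23 FPKM (SD, n = 3 per group, edgeR adjusted p = 0.0375). Leaving out any single library other than hemin replicate 2 ended its call (edgeR adjusted p from 0.0604 to 0.110), as did totals alone (0.0563), no filter (0.0613) and blocking on replicate number (0.0519). Rel, the remaining subunit, stood at 0.203 ± 0.182 and 0.747 ± 0.0208 FPKM and did not pass (edgeR adjusted p = 0.0810, a gene chosen after its values were seen). Nkrf, a repressor, stood at 12.0 ± 1.19 and 10.9 ± 1.37 FPKM (edgeR adjusted p = 0.677).

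Of 14 upstream kinases tested, 3 rose (21.4%) and 2 fell (14.3%), shares near the 16.2% and 15.7% of all genes, with a median log2 fold change of 0.11. Map3k14, the NIK kinase of the non-canonical route, rose 4.11-fold (mean 1.27 ± 0.186 FPKM in vehicle, 5.05 ± 0.591 in hemin, SD, n = 3 per group, edgeR adjusted p = 0.000480). Chuk, which encodes IKKα, rose 1.55-fold (mean 15.5 ± 1.39 FPKM in vehicle, 23.2 ± 1.58 in hemin, edgeR adjusted p = 0.00592), and the IKK-related kinase Tbk1 1.90-fold (mean 10.7 ± 0.510 FPKM in vehicle, 19.6 ± 1.76 in hemin, adjusted p = 0.00196). The 2 that fell belong to the TAK1 complex, which activates IKK in the canonical route. Its other listed parts did not pass. Tab2 stood at 32.5 ± 0.913 and 27.7 ± 2.41 FPKM (edgeR adjusted p = 0.237). Tab3 stood at 0.627 ± 1.085 and 0.580 ± 0.552 FPKM (edgeR adjusted p = 0.969). Tab1 fell 2.05-fold (mean 7.77 ± 0.440 FPKM in vehicle, 3.64 ± 0.665 in hemin, edgeR adjusted p = 0.00564) and Map3k7, TAK1 itself, 1.30-fold (mean 30.9 ± 0.456 FPKM in vehicle, 22.9 ± 1.35 in hemin, adjusted p = 0.0204). Map3k7 no longer passed when vehicle replicate 1, 2 or 3 was left out (edgeR adjusted p = 0.0688, 0.0700 and 0.0670), or hemin replicate 2 (0.0713). Ikbkb, encoding IKKβ, stood at 12.4 ± 0.651 and 12.3 ± 2.71 FPKM, and Ikbkg, the scaffold NEMO, at 5.36 ± 0.569 and 4.74 ± 0.163 FPKM. Neither passed (edgeR adjusted p = 0.988 and 0.479), and both were chosen for their role after their values were seen.

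Among receptors, 5 of 11 tested genes rose (45.45%) and none fell, beside 16.2% and 15.7% of all genes. The median was 0.59, beside 0.0022 over all genes. Of the 5, Tlr2 entered the test only through its hemin counts. Tnfrsf12a, the receptor for TWEAK, rose 9.12-fold (mean 12.6 ± 5.09 FPKM in vehicle, 110.5 ± 8.24 in hemin, SD, n = 3 per group, edgeR adjusted p = 0.000406), the highest level of the listed receptors with hemin. Tlr2, which senses bacterial lipoproteins, rose 4.88-fold (mean 0.173 ± 0.0231 FPKM in vehicle, 0.813 ± 0.205 in hemin, edgeR adjusted p = 0.00393). The interleukin-1 receptor Il1r1 rose 2.49-fold (mean 0.543 ± 0.191 FPKM in vehicle, 1.29 ± 0.220 in hemin, adjusted p = 0.0214), and the TNF receptors Tnfrsf1a and Tnfrsf1b 1.41-fold and 2.17-fold (0.0298 and 0.0409). Tnfrsf1a no longer passed when vehicle replicate 1, 2 or 3 was left out (edgeR adjusted p = 0.0594, 0.0868 and 0.0650). For Il1r1 the same held for vehicle replicates 1 and 2 (0.0699 and 0.0719), for hemin replicate 2 (0.0638) and under a replicate block (0.0512). Tnfrsf1b failed when any single library other than vehicle replicate 1 was left out (0.0666 to 0.110), under totals alone (0.0513), under no filter (0.0599), in DESeq2 (0.0604) and in limma on log2(FPKM + 0.1) (0.0556). Microglia also express Tlr2 and Tnfrsf1b, and the part of the higher microglia markers in these values was not tested. Tnfrsf19, a TNF receptor family member of glial progenitors, stood at 16.8 ± 1.25 and 13.3 ± 0.379 FPKM and did not pass (edgeR adjusted p = 0.0759), but was called lower with totals alone (0.0263) and by limma at pseudocounts of 1 and 0.1 (0.0476 and 0.0458). Of the ligands, 2 of 9 had enough counts, of which 1 rose and none fell, beside 16.2% and 15.7% of all genes. The 1 that rose, Tnfsf13b, entered the test only through its hemin counts and could only be called higher. Tnfsf13b, the cytokine BAFF, rose 4.71-fold (mean 0.357 ± 0.0569 FPKM in vehicle, 1.59 ± 0.278 in hemin, edgeR adjusted p = 0.00337), and Tnfsf12, which encodes TWEAK, stood at 1.58 ± 0.301 and 1.60 ± 0.705 FPKM (0.902).

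Of 14 adaptors and ubiquitin ligases tested, 6 rose (42.9%) and none fell, beside 16.2% and 15.7% of all genes, with a median of 0.41. Sqstm1, the p62 scaffold that also serves autophagy and the antioxidant response, rose 9.94-fold (mean 64.4 ± 11.9 FPKM in vehicle, 614 ± 133 in hemin, SD, n = 3 per group, edgeR adjusted p = 0.000199). Traf5, an adaptor of TNF family receptors, rose 3.14-fold (mean 0.630 ± 0.0755 FPKM in vehicle, 1.91 ± 0.549 in hemin, edgeR adjusted p = 0.00762), Bcl10, an adaptor upstream of IKK, 1.43-fold (0.0226) and Traf6, the ligase of interleukin-1 and Toll-like receptor signalling, 1.40-fold (0.0165). Traf6 failed when vehicle replicate 1, vehicle replicate 2 or hemin replicate 2 was left out (edgeR adjusted p = 0.0643, 0.0666 and 0.0556). Bcl10 failed for the same 3 libraries (0.0889, 0.0822 and 0.0638) and for hemin replicate 3 (0.0606). Traf2, an adaptor of TNF receptors, stood at 5.09 ± 0.579 and 4.19 ± 0.384 FPKM (edgeR adjusted p = 0.295).

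Besides Tnfaip3, 12 further negative regulators were tested, of which 5 rose (41.7%) and 2 fell (16.7%), with a median of 0.38. Over all genes 16.2% rose and 15.7% fell, so the share that fell was near that of all genes. Of the 5, Usp18 entered the test only through its hemin counts. Usp18, an isopeptidase best known from interferon signalling, rose 7.41-fold (mean 0.130 ± 0 FPKM in vehicle, 0.993 ± 0.189 in hemin, SD, n = 3 per group, edgeR adjusted p = 0.00195). Tax1bp1, Itch and Rnf11, which act together with A20 in a ubiquitin-editing complex, rose 1.64-fold, 1.35-fold and 1.42-fold (edgeR adjusted p = 0.00274, 0.0320 and 0.00747), and the ligase Peli1 1.55-fold (0.00573). Itch failed when any single library other than hemin replicate 3 was left out (edgeR adjusted p from 0.0580 to 0.106), under totals alone (0.0553) and under no filter (0.0510). The 2 that fell are deubiquitinases. Otud7b, also called Cezanne, fell 5.99-fold (mean 2.78 ± 1.02 FPKM in vehicle, 0.447 ± 0.0603 in hemin, edgeR adjusted p = 0.00130). Cyld fell 1.45-fold (mean 4.83 ± 0.559 FPKM in vehicle, 3.23 ± 0.337 in hemin, adjusted p = 0.0191), a call that ended when vehicle replicate 1 or 2 (0.0869 and 0.0917) or hemin replicate 2 (0.0518) was left out.

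Of 20 other target genes tested, 12 rose (60%) and 1 fell (5%), beside 16.2% and 15.7% of all genes, with a median of 1.13. Among the 12 were 5 of the genes that passed the filter only through hemin (Ccl2, Cxcl1, Cxcl2, Cxcl10 and Ptgs2). Ptgs2, the inducible cyclooxygenase, rose 178-fold (mean 0.113 ± 0.0404 FPKM in vehicle, 20.4 ± 1.11 in hemin), and the chemokine Cxcl10 32.5-fold (mean 0.517 ± 0.0666 FPKM in vehicle, 16.6 ± 2.76 in hemin, SD, n = 3 per group, edgeR adjusted p = 1.38e-05 and 0.000162). Csf1, the growth factor of microglia and macrophages, rose 6.08-fold (mean 7.12 ± 0.741 FPKM in vehicle, 41.1 ± 9.40 in hemin, edgeR adjusted p = 0.000278), and Gadd45b, a stress-induced survival factor, 9.23-fold (mean 2.19 ± 0.465 FPKM in vehicle, 19.7 ± 6.90 in hemin, adjusted p = 0.000714). Xiap, a caspase inhibitor, fell 1.37-fold (mean 24.7 ± 0.147 FPKM in vehicle, 18.0 ± 1.83 in hemin, edgeR adjusted p = 0.0182), a call that ended when vehicle replicate 1, 2 or 3 was left out (0.0673, 0.0636 and 0.0518). Several well known targets stood at like levels in both groups. The adhesion molecule Vcam1, the counterpart of Icam1, was at 21.9 ± 1.65 and 22.0 ± 4.59 FPKM, and Sod2, the mitochondrial superoxide dismutase, at 29.8 ± 0.785 and 29.9 ± 2.36 FPKM. Neither passed (edgeR adjusted p = 0.823 and 0.671), and both were chosen after their values were seen. Many of these targets respond to other transcription factors as well, so their counts describe the list and do not measure NF-kB activity.

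**Figure D5:**
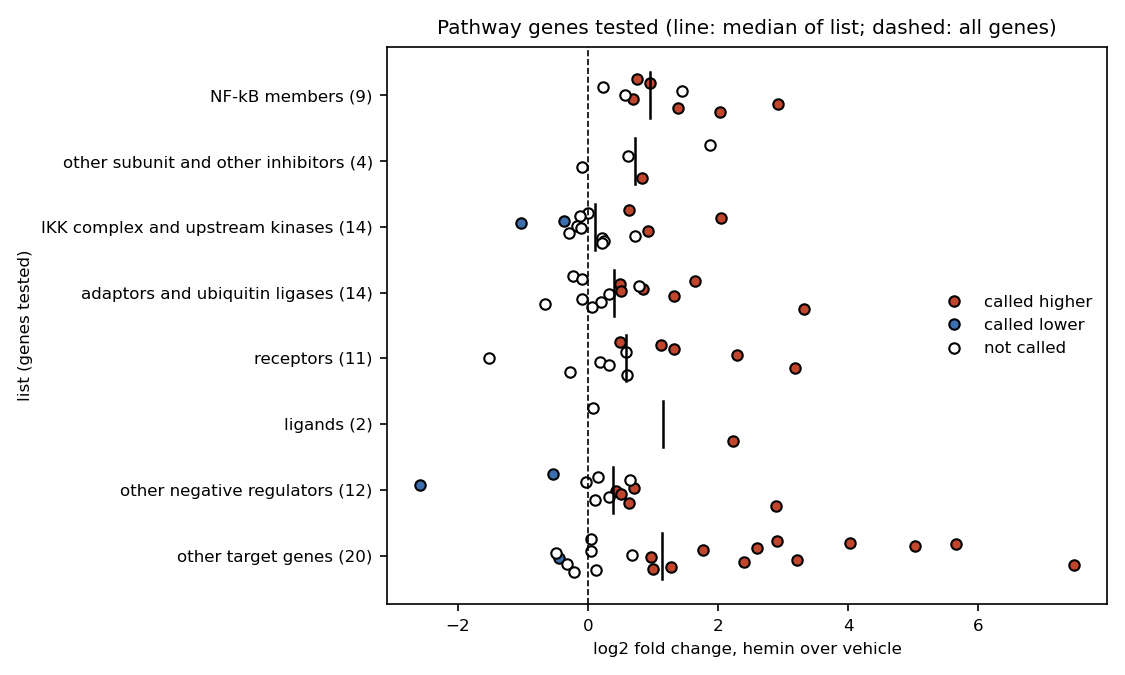
Log2 fold change of hemin over vehicle (horizontal axis) of the tested NF-kB genes and of the tested genes of 7 pathway lists (rows, number tested in brackets), red where called higher, blue where called lower and white where not called. Short lines are list medians and the dashed line is the median of all genes. The other target genes spread farthest to the right, up to Ptgs2 at 7.48, and the kinases lie on both sides.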

How the data were processed

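RNA-seq covered 6 libraries, 3 per group by title. Bowtie 0.12.2 and RSEM, and builds mm8 and mm9 without saying which was used, appear in the submitters' processing notes. Annotation release, read filtering and strandedness are not stated there. Per the file headers, the tables of the authors hold expected counts for each transcript and FPKM values, scaled by length and depth. Features at 0 are not listed, so a missing gene was set to 0. Unannotated features were not used.

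Transcripts were summed to 18743 genes by gene identifier, with a RefSeq (GRCm38.p6) symbol for 18711, and 16 identifiers were resolved through a transcript accession. Exon overlaps came from GENCODE vM21. Expected counts were rounded after summing. In R 4.3.3, edgeR 4.0.16 (filterByExpr by group, minimum count 10, TMM, glmQLFit, glmQLFTest, two-sided, no covariates) tested hemin against vehicle with Benjamini-Hochberg adjustment over 12779 genes, calls being at an adjusted p below 0.05. A gene can pass the filter through 1 group alone, which favours rises among genes near 0. The SE is the size of the log2 fold change divided by the square root of F. Ratios were compared over libraries by exact permutation. Alternatives were RLE factors, totals alone, DESeq2 1.42.0, limma 3.58.1 with a trend on log2(FPKM + 1) and log2(FPKM + 0.1), which understates changes of low genes, no filter, a replicate block and leaving out each library. The code was tested on simulated counts. Replicates of a group differed by more than counting noise (chi-square per degree of freedom 5.35 to 21.7), so none was merged in a test. The counting intervals of genes below the filter rest on sums over a group.

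The NF-kB genes and lists were chosen with earlier results of these data known. All NF-kB genes are named, and of each list up to 4 called genes of smallest p, the gene of smallest p in the opposite direction and genes counted 5 or fewer to a sentence. For Nfkbiz, which had the smallest p, the 3 genes with the highest Pearson correlation are named.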

Additional observations from a re-analysis of the deposited data

How the results depend on the processing

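Nfkb1, Nfkbiz, Tnfaip3 and Icam1 were called higher in all 13 alternatives too, with Tnfaip3 nearest the threshold (adjusted p up to 0.0499). The log2 fold changes of all 9 tested NF-kB genes were above 0 in each alternative. Leaving out each library in turn gave 5 to 7 NF-kB genes called higher and 0 lower, the seventh being Birc3 without hemin replicate 1 (edgeR adjusted p = 0.0373). Without 1 library, the pathway lists had 27 to 33 genes called higher and 2 to 6 lower, and all genes 1442 to 2213 higher and 1109 to 2317 lower, the lowest of the last being 1136 and 1109 without vehicle replicates 1 and 2. The log2 fold change of Nkrf lay between -0.19 and 0.015 without 1 library, above 0 only without hemin replicate 2. Totals alone moved the share of higher calls among all calls from 50.8% to 39.9%. The replicate numbers are shared by the groups but the labels do not call them pairs. The correlation of deviations from group means was 0.0631, 0.10 and 0.157 for numbers 1, 2 and 3, and each library correlated best with its own number. These correlations are small and tied together, because deviations within a group sum to 0. They cannot decide whether the numbers mark pairs. With the replicate number as a block, 6 NF-kB genes and 30 pathway genes were called higher and 0 and 5 lower, with 1892 higher and 1836 lower over all genes. Without 1 library, the log2 difference of the Nfkbia to Rela ratio lay between 0.19 and 0.50 and that of the non-canonical to canonical ratio between 0.49 and 1.05. Depth limits Birc3, at 3 to 12 counts per library, and the 32 pathway genes that were not tested.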

Other observations

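Of the 109 pathway genes, 32 had too few counts to be tested, and 1 of these had no counts at all. Of the other 31, 24 (77.4%) had more summed counts with hemin than with vehicle and 5 (16.1%) fewer, close to the 71.3% and 22.1% of all 5964 genes below the filter. Hemin libraries held 16711 to 16890 genes above 0 and vehicle libraries 15383 to 15495. Without a filter 6 of the 31 passed, all as higher in hemin (edgeR adjusted p from 0.00420 to 0.0237), beside 387 higher (6.49%) and 17 lower (0.285%) of the 5964. Tnfsf11, the cytokine RANKL, had 1 count summed over the vehicle group and 38 over the hemin group, a depth-scaled ratio of 37.2 with an exact 95% counting interval from 6.28 to 1507. The chemokine Ccl7 had 1 and 32 counts (ratio 31.3, interval 5.23 to 1275), and the complement component C3 had 3 and 30 (ratio 9.78, interval 3.04 to 50.1). The costimulatory receptor Cd40 had 5 and 24 counts, the metalloproteinase Mmp9 7 and 35, and the cytokine Il6 1 and 27 (ratio 26.4, interval 4.35 to 1082). These intervals rest on counts summed over the 3 libraries of each group. They hold counting error alone and leave out the spread between libraries. Amplified reads that carry no molecular identifier are not separate molecules. The 6 genes named here are those that passed without a filter, so their ratios are those of selected genes. The ligands that classically start the pathway were scarce in both groups, with 4 and 13 counts for Tnf, 4 and 11 for Il1a and 1 and 1 for Il1b with vehicle and hemin.

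Over the 6 libraries, the genes whose log2 CPM was most like that of Nfkbiz were Usp18, Fam71a and Mrpl24, with a Pearson correlation of 0.999, 0.999 and 0.998. The points share the split between treatments, and 708 tested genes had a correlation with Nfkbiz above 0.95, so this is a description of these libraries only.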
